A study of Solanum lycopersicum with 9 samples.

Results

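AS5 pool 3 and AS17 pool 1 are 2 of the 6 fruit arrays from tomato lines carrying an antisense Asr1 construct, and 2 of the 9 arrays of the series. They were selected on the measured values, because they stood apart from the other 4 silenced-line arrays (AS5 pools 1 and 2, AS17 pools 2 and 3) on the first principal component. The contrast of the 2 with the 4 is therefore a description of these arrays, and no test or p-value is attached to it.

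The study hybridised RNA from red ripe fruit mesocarp, the fleshy wall of the fruit, of Solanum lycopersicum cv Money Maker to Affymetrix tomato arrays. The groups were the antisense line AS5 (3 pools), the antisense line AS17 (3 pools) and wild-type plants without the construct (WT, 3 pools), all grown in the same greenhouse conditions. Each array held a pool of 2 fruit mesocarps, and the pools of a line came from 3 different plants. Each silenced line is thus a single transgenic line, and 3 pools per line limit the precision of every value. The deposited values were on the log2 scale, where 1 unit is a doubling, and all levels, gaps and changes below are log2 values unless a fold is named. The silencing itself was not checked on these arrays, since the annotation used names no probe set Asr1. Ripe fruit markers were near the top of the scale in all 9 arrays: PG2, the polygalacturonase of ripe fruit, stood at 11.88 in AS5 pool 3 and 12.21 in AS17 pool 1, at 12.04 to 12.31 in the other 4 silenced arrays and at 11.80 to 12.11 in WT.

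Ethylene drives tomato ripening: ACC synthase and ACC oxidase make the hormone, receptors and the CTR1 and EIN2 proteins relay it, and transcription factors of the ERF family act at its target genes. The same hormone, with jasmonate, also takes part in responses to wounding and to pathogens, in which ERF proteins, chitinases, glucanases and proteins of the pathogenesis-related families are commonly induced. Small heat shock proteins and dehydrins mark other kinds of stress, heat and water loss. In whole-tissue RNA, fewer cells of a type and less RNA per cell cannot be told apart.

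Over all 9 arrays the first component held 40.1% of the variance of the 10038 probe sets left after control probe sets were removed. The component scores were 33.4 in AS5 pool 3 and 34.96 in AS17 pool 1, against -6.11 and -4.95 in AS5 pools 1 and 2, -9.10 and 12.5 in AS17 pools 2 and 3, and -27.2, -16.8 and -16.7 in the WT pools. AS17 pool 3 was the silenced array nearest to the outlying pair. Over the 6 silenced arrays alone, the first component held 50.8% of the variance, and AS17 pool 3 was again nearest, at -5.11 against 32.3 in AS5 pool 3, 28.3 in AS17 pool 1 and -24.7 to -13.8 in the remaining 3. Across probe sets, which are not independent, the 2 outlying arrays correlated with each other at 0.992, with the other 4 at 0.981 to 0.986 and with WT at 0.976 to 0.983.

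**Figure D1:**
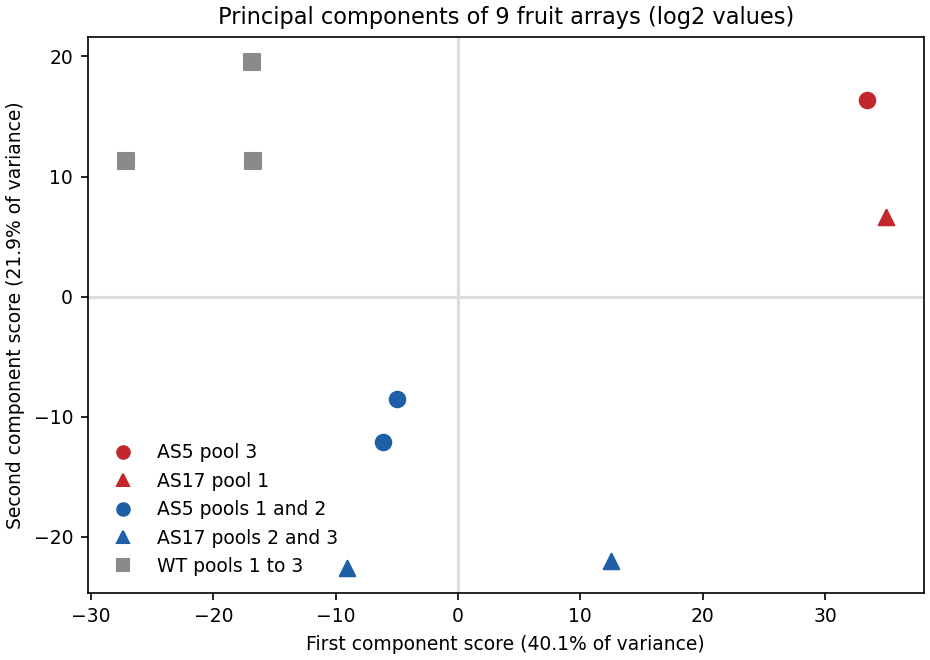
Scores of the 9 arrays on the first (x axis) and second (y axis) principal components of the log2 values, in score units, with 40.1% and 21.9% of the variance. Each point is 1 array. AS5 pool 3 and AS17 pool 1 lie at 33.4 and 34.96 on the x axis, and AS17 pool 3, at 12.5, is the nearest other array.

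Signs of array quality also differed. The median over probe sets was 5.47 in AS5 pool 3 and 5.26 in AS17 pool 1, against 5.24 to 5.29 in the other 4 and 5.30 to 5.33 in WT. The 3′ minus 5′ signal of the gapdh control was 0.619 in AS5 pool 3 and 0.550 in AS17 pool 1, against 0.939 to 1.06 in the other 4 and 0.830 to 1.03 in WT. That of the ubiquitin control was 1.12 and 1.36 in the outlying arrays, against 1.41 to 1.75 in the other 4 and 1.42 to 1.74 in WT. Both controls were thus lower in the outlying pair than in the other 7 arrays. The actin control did not separate them: its difference was 0.481 in AS5 pool 3 and 1.08 in AS17 pool 1, against 0.733 to 1.10 in the other 4. A background level, set per array from control probe sets for reporter genes, was 1.57 and 1.61 in the outlying arrays, against 1.64 to 1.98 in the other 4 and 1.41 to 1.56 in WT. Hybridisation spike-ins averaged 8.38 and 8.45 in the outlying arrays, against 7.89 to 9.12 in the other 4. The part that RNA quality or array signal plays in the differences below was not tested.

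For each probe set a gap was taken: the lower of the 2 outlying arrays minus the highest of the other 4, or, where the 2 were lower, the higher of the 2 minus the lowest of the other 4. A positive gap thus means that both outlying arrays stood above all of the other 4, and overlapping probe sets have a gap of 0. Both outlying arrays stood above the other 4 in 1547 probe sets (15.4%) and below them in 1309 (13%). The wide gaps were nearly all upward. A gap of at least 1 was found above in 79 probe sets (0.787%) and below in 1 (0.00996%), and a gap of at least 2 above in 11 and below in 0. The arrays were selected on these same values, so these shares are given only as the background for the counts of genes that follow. At the threshold, the last probe set inside had a gap of 1.01 and the first outside 0.99. The count of 79 depended on AS17 pool 3, without which it was 214. With AS5 pool 3 or AS17 pool 1 left out, so that a single outlying array remained, it was 130 and 174.

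The position of WT varied among these 79 probe sets. In 35 no WT array was above the highest of the other 4 silenced arrays, in 34 at least 1 WT array lay between the 4 and the 2, and in 10 at least 1 WT array reached the level of the outlying pair. In 0 of the 79 did all 3 WT arrays reach it. Among the other 4, the highest value belonged to AS17 pool 3 in 26 of the 79, to AS5 pool 2 in 26, to AS5 pool 1 in 20 and to AS17 pool 2 in 7. In 6 of the 79, the other 7 arrays were all at background, so the signal was measured in the outlying pair alone.

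Of the 802 genes with a name on the array, 148 stood higher in both outlying arrays by any gap, 95 stood lower and 559 overlapped. By a gap of at least 1, 16 named genes (1.995%) stood higher and 0 lower, beside 0.787% and 0.00996% of all probe sets. With values below background raised to it, the counts were 15 and 0, which takes out ARG2. The 16 were PTI5, Xegip, TSI-1, CHI9, ACO5, LOC543699, ERF3, PGH1, adc1, LOC543961, CELLULASE, LOC544143, ARG2, XTH1, GRAS6 and TBG6, in order of their gaps, which ran from 3.18 to 1.01. The next gene, ctu1, listed as a glutathione S-transferase, had a gap of 0.95. In 7 of the 16 no WT array was above the highest of the other 4 silenced arrays, in 8 WT lay between, and in 1, CHI9, a WT array reached the outlying pair.

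**Figure D2:**
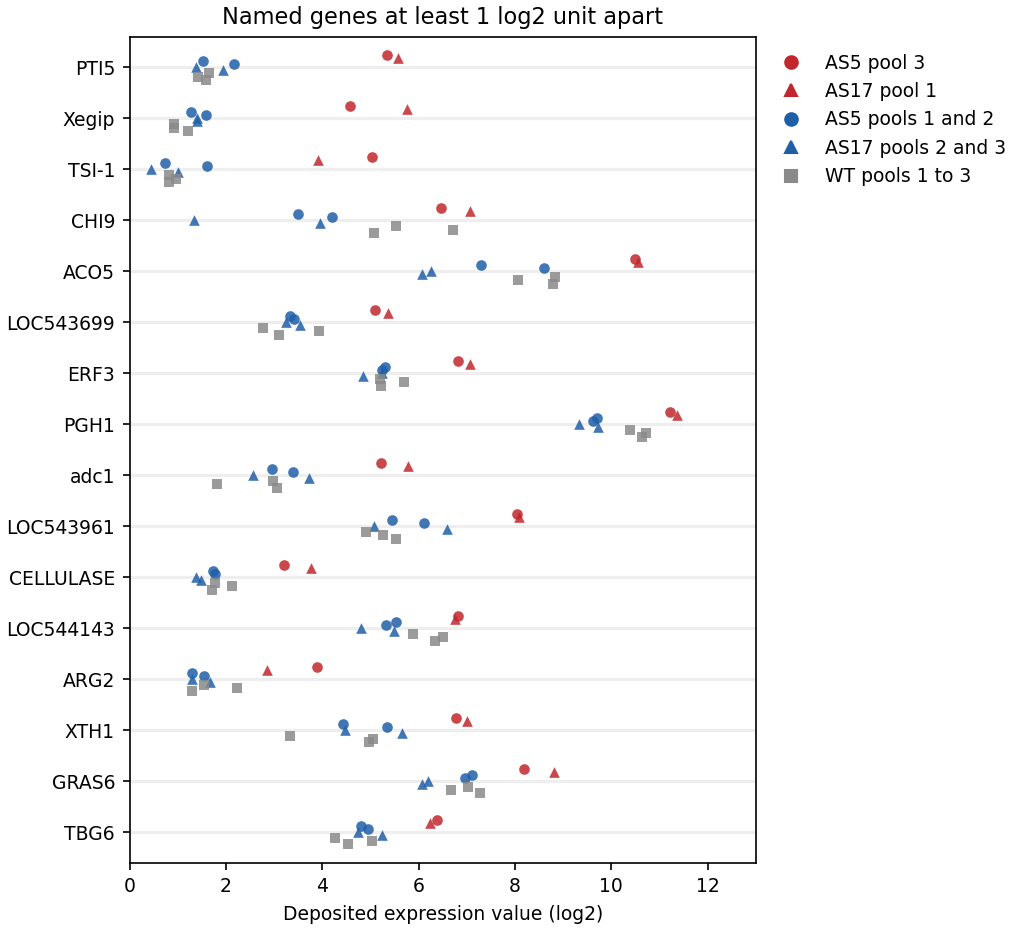
Deposited log2 expression value (x axis) of the 16 named genes with a gap of at least 1 (y axis, widest gap at the top), 1 point per array, red for AS5 pool 3 and AS17 pool 1, blue for the other 4 silenced arrays and grey for WT. The red points lie right of all blue points in every row. The WT points reach the red ones in CHI9 alone, where the highest WT array is at 6.71.

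PTI5, an ERF family transcription factor that binds the resistance kinase Pto, had the widest gap of any named gene. Its level was 5.34 in AS5 pool 3 and 5.56 in AS17 pool 1, against 1.52 and 2.16 in AS5 pools 1 and 2, 1.37 and 1.95 in AS17 pools 2 and 3, and 1.65, 1.42 and 1.58 in WT. The outlying arrays were thus close to each other and far above the other 7, with a gap of 3.18, or 9.04-fold. Of the other 4 arrays, 2 were at background for this gene. ERF3, another member of the family, stood at 6.83 in AS5 pool 3 and 7.08 in AS17 pool 1, against 5.30 and 5.23 in AS5 pools 1 and 2, 5.24 and 4.86 in AS17 pools 2 and 3, and 5.19, 5.70 and 5.23 in WT. The 7 arrays outside the pair lay within 1 unit of each other, and the gap was 1.53. A second ERF3 probe set was dim in all 9 arrays, between 0.81 and 1.21.

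Of the 15 ERF, PTI and DREB genes listed, 6 stood higher in both outlying arrays by any gap, 3 stood lower and 6 overlapped, with a median gap of 0, as over all named genes. Over all 802 named genes, 18.5% stood higher, 11.8% lower and the rest overlapped. The counts of every list below are to be read beside these shares. Genes at background in all 9 arrays were counted in the lists. Their overlap shows no more than a lack of signal, and their gaps cannot be read as differences. Beyond PTI5 and ERF3, the gaps were 0.43 for PTI6, 0.34 for DREB3, 0.27 for DREB1 and 0.20 for ERF4. PTI6 differed within the pair, at 3.15 in AS5 pool 3 and 4.08 in AS17 pool 1, against 2.02 to 2.72 in the other 4 and 2.36 to 3.07 in WT. JERF1 and JERF3 stood lower by 0.11 and 0.10. JERF3 was at 8.38 and 8.90 in the outlying arrays, against 8.99 to 9.36 in the other 4 and 9.04 to 9.22 in WT. The listed gene with the widest gap below was ERF-H1, at -0.26, and its levels were close to background, at 1.58 and 1.85 in the outlying arrays and above 2 in each of the other 4.

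Among the 13 genes of ethylene synthesis, ACO5, an ACC oxidase, which carries out the last step, stood out. It was at 10.49 in AS5 pool 3 and 10.56 in AS17 pool 1, against 7.31 and 8.61 in AS5 pools 1 and 2, 6.25 and 6.08 in AS17 pools 2 and 3, and 8.83, 8.06 and 8.79 in WT. The outlying arrays agreed within 0.1 unit, while the other 4 spread over more than 2 units with both AS17 pools at the bottom and WT around the level of AS5 pool 2. The gap was 1.88, or 3.68-fold, and AS5 pool 2 set it: without that array it was 3.19. ACS2, an ACC synthase of ripening fruit, went the other way. It was at 9.86 and 10.02 in the outlying arrays, against 10.85 and 10.53 in AS5 pools 1 and 2, 10.70 and 10.32 in AS17 pools 2 and 3, and 9.64, 8.58 and 9.61 in WT, a gap of -0.30. The outlying pair thus lay between the other silenced arrays and WT in ACS2.

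In the rest of the ethylene synthesis list, SAM3, an S-adenosylmethionine synthetase, had a gap of 0.04, with the outlying arrays at 10.68 and 11.14, AS17 pool 3 at 10.64 and the other 3 silenced arrays at 9.85 to 9.93. ACS6 had a gap of 0.06 with 7 of its 9 arrays at background. The 9 other genes of the list overlapped, but ACS1A, ACS3, ACS5, ACS7 and ACS8 among them were at background in all 9 arrays. ACO4, a second ACC oxidase, was at 5.56 in AS5 pool 3 and 7.09 in AS17 pool 1, against 5.89 to 7.46 in the other 4. Of the 14 genes of ethylene perception and signalling, 12 overlapped. The receptor gene ETR6 stood higher by 0.20, at 7.53 and 7.01 in the outlying arrays, against 6.18 to 6.81 in the other 4 and 6.33 to 6.70 in WT. CTR1, the kinase that holds the pathway off, stood lower by 0.06. The receptor gene ETR4 overlapped, at 10.93 and 11.05 in the outlying arrays and 10.84 to 11.20 in the other 4.

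A list of 10 genes named ER, after complementary DNA clones of ethylene-treated fruit, was added after values had been seen. In it, 3 genes stood higher, 0 lower and 7 overlapped. PGH1, the glycolytic enzyme enolase, which carries ER28 as a synonym, was at 11.22 in AS5 pool 3 and 11.37 in AS17 pool 1, against 9.71 and 9.62 in AS5 pools 1 and 2, 9.33 and 9.72 in AS17 pools 2 and 3, and 10.40, 10.72 and 10.63 in WT. Here the other 4 silenced arrays were below WT and the outlying pair above it, with a gap of 1.50 between the silenced arrays. ER66 and ER49 had gaps of 0.31 and 0.20.

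The pathogenesis-related and defence list, with 25 of the 802 named genes, held 3 of the 5 with the widest gaps. Of these, Xegip and TSI-1 were markers given for the pair. The markers and the list were chosen with earlier results of these data known, so this count was partly fixed in advance. Xegip, an inhibitor protein of xyloglucan-specific endoglucanases, was at 4.58 in AS5 pool 3 and 5.76 in AS17 pool 1, against 1.28, 1.59, 1.41 and 1.41 in the other 4 (AS5 pools 1 and 2, AS17 pools 2 and 3) and 0.91, 0.92 and 1.20 in WT. TSI-1, of the PR-10 family, was at 5.04 in AS5 pool 3 and 3.92 in AS17 pool 1, against 0.74, 1.61, 0.45 and 1.01 in the other 4 and 0.82, 0.97 and 0.82 in WT. For both genes the other 7 arrays were all at background, so only a bound can be given. With values below background raised to it, Xegip was at least 6.07-fold and TSI-1 at least 3.84-fold higher in the lower outlying array than in the highest of the other 4. Within the pair, Xegip was higher in AS17 pool 1 and TSI-1 in AS5 pool 3, each by more than 1 unit.

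CHI9, a basic class I chitinase, was at 6.46 in AS5 pool 3 and 7.06 in AS17 pool 1, against 3.51 and 4.20 in AS5 pools 1 and 2, 1.33 and 3.96 in AS17 pools 2 and 3, and 5.52, 6.71 and 5.07 in WT. The gap among silenced arrays was 2.27, but WT pool 2 was above AS5 pool 3, so the outlying pair did not stand apart from WT in this gene. The basic glucanase GluB was at lower levels, at 3.73 and 3.84 in the outlying arrays, against 1.70 to 3.22 in the other 4 and 3.09 to 4.61 in WT, a gap of 0.51. CHI3, an acidic chitinase, was at 9.77 and 8.76 in the outlying arrays, against 6.91, 8.60, 5.33 and 7.78 in the other 4 and 6.61, 3.83 and 6.71 in WT. Its gap was only 0.15, because AS5 pool 2 was nearly as high. Of 25 listed genes, 8 stood higher by any gap, 1 lower and 16 overlapped, beside 148, 95 and 559 of all 802 named genes. At background in all 9 arrays were CEVI-1, CEVI57, LOC543878, P4, THT1-3, THT7-8 and Ve1, which overlapped. The 1 lower gene, TPX2, was at background in 8 of the 9 arrays. The overlapping ones included NP24-I, an osmotin-like protein, at 10.48 and 10.13 in the outlying arrays and 9.70 to 10.83 in the other 4.

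Of 22 wounding and jasmonate genes, 6 stood higher, 3 lower and 13 overlapped, beside 148, 95 and 559 of all 802 named genes. ARG2, the wound- and jasmonate-inducible arginase, was at 3.88 in AS5 pool 3 and 2.86 in AS17 pool 1, against 1.29, 1.55, 1.30 and 1.67 in the other 4 and 1.55, 2.23 and 1.29 in WT, a measured gap of 1.19 with 3 of the other 4 at background. Its levels were low throughout, and with values raised to background the gap was 0.88, under the threshold of 1. Another ARG2 probe set had a gap of 1.34, and the last overlapped near background. ARG1, the other arginase, was at 7.90 and 7.81 in the outlying arrays, against 7.09 to 7.25 in the other 4 and 7.10 to 7.75 in WT, a gap of 0.56.

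OPR3, which acts late in jasmonate synthesis, was at 9.35 in AS5 pool 3 and 9.57 in AS17 pool 1, against 7.76 and 7.91 in AS5 pools 1 and 2, 7.91 and 8.98 in AS17 pools 2 and 3, and 7.01, 7.82 and 7.33 in WT. AS17 pool 3 again lay between the pair and the other 3, and the gap was 0.37. The earlier steps of the pathway did not separate the arrays. AOC was at 5.69 and 5.18 in the outlying arrays and 5.42 to 5.82 in the other 4, loxD was at 3.90 and 4.12 in the outlying arrays and 2.55 to 3.93 in the other 4, and AOS was at background in all 9. LAPA1, a leucine aminopeptidase induced by wounding, was at 6.98 in AS17 pool 1 but at 5.27 in AS5 pool 3, against 4.54 to 5.62 in the other 4 and 3.24 to 4.12 in WT. HPL, of the volatile-forming branch of lipid oxidation, stood lower by 0.28.

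**Figure D3:**
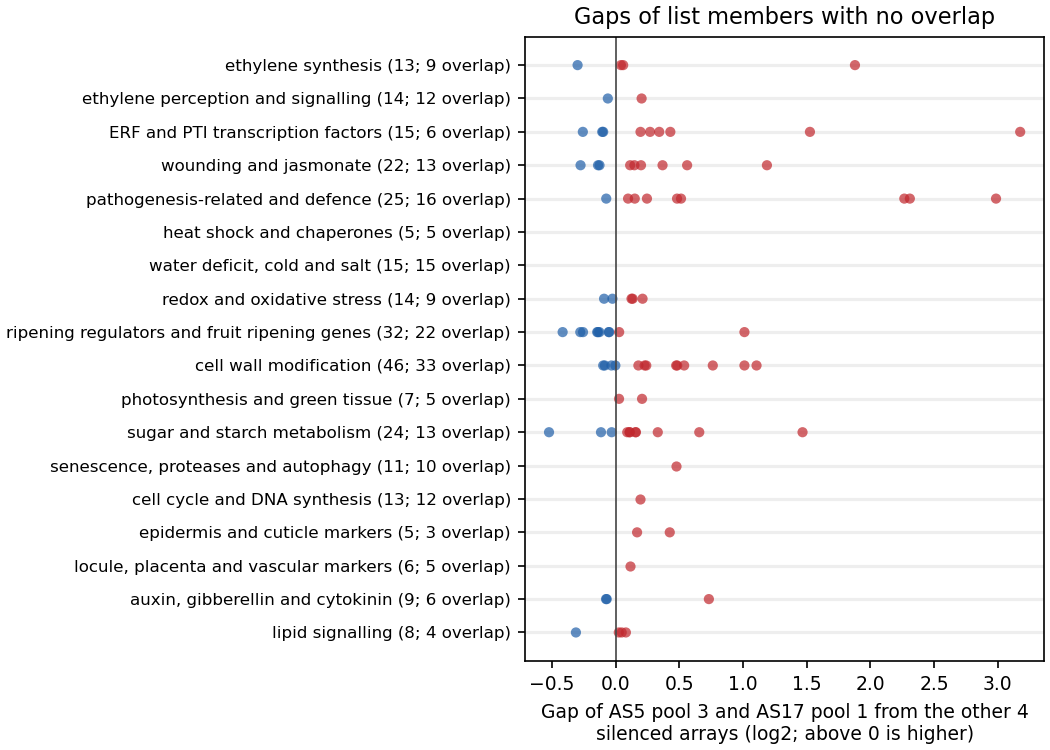
Gap on the log2 scale (x axis) of each listed gene whose 2 outlying and 4 other silenced arrays did not overlap, by gene list (y axis, with the number of genes measured and the number that overlapped). Each point is 1 gene, red where AS5 pool 3 and AS17 pool 1 were higher and blue where they were lower. Lists with under 3 genes measured are not drawn. Of those drawn, the ERF and defence lists hold the gaps of 2 or more, and the heat shock and water deficit lists have no point. PTI5, Xegip and TSI-1, among the genes with these widest gaps, were markers given for the pair.

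The genes of water deficit, cold, salt and heat shock that were measured did not set the pair apart. All 15 measured genes of water deficit, cold and salt, from 38 symbols listed, overlapped, as did 559 of all 802 named genes. SOS2 and TSW12 among the 15 were at background in all 9 arrays. The symbol pip1, meant as an aquaporin here and as a protease in the defence list, matched the same probe set and was counted in both lists. TAS14, a dehydrin, was at 3.06 and 3.79 in the outlying arrays, against 2.69 to 4.42 in the other 4, and NCED1, of abscisic acid synthesis, was at 7.52 and 7.99 in the outlying arrays, against 7.54 to 7.79 in the other 4. All 5 heat shock genes measured, from 43 symbols listed, overlapped too. In 3 of them, HSP21, ER-SHSP and HSP17.4, the outlying arrays differed from each other by more than 1 unit. HSP21, the plastid small heat shock protein, was at 11.67 in AS5 pool 3, the highest of the 6 silenced arrays, and at 9.03 in AS17 pool 1, the lowest, against 9.80 to 10.36 in the other 4 and 10.13 to 10.26 in WT. ER-SHSP, of the endoplasmic reticulum, was at 9.96 in AS5 pool 3 and 8.00 in AS17 pool 1, against 7.86 and 8.38 in AS5 pools 1 and 2, 7.07 and 4.95 in AS17 pools 2 and 3, and 7.03 to 7.82 in WT. HSP17.4 was at 11.65 in AS5 pool 3 and 10.23 in AS17 pool 1, against 9.48 to 10.74 in the other 4. Hsp90-1 was at 10.08 and 9.96 in the outlying arrays, against 9.19 to 10.03 in the other 4.

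**Figure D4:**
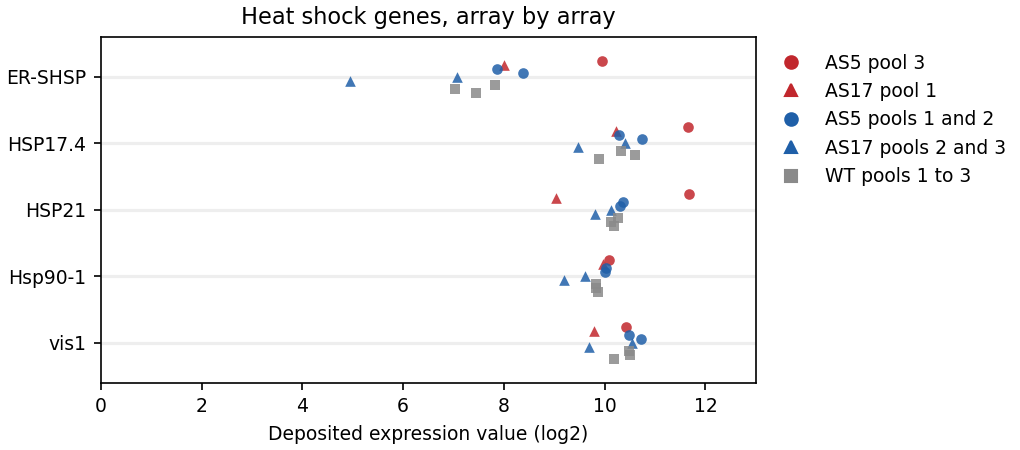
Deposited log2 expression value (x axis) of the 5 heat shock genes (y axis), 1 point per array, with colours and shapes for the groups as in the legend. AS5 pool 3 is the highest silenced array for ER-SHSP, HSP17.4 and HSP21, while AS17 pool 1 lies inside the range of the others for ER-SHSP and HSP17.4 and below it for HSP21, at 9.03.

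Of the 14 redox genes, 3 stood higher, 2 lower and 9 overlapped, with gaps no wider than 0.21. That widest gap belonged to APX2, an ascorbate peroxidase, at 10.48 and 10.55 in the outlying arrays, against 9.98 to 10.27 in the other 4 and 9.75 to 10.01 in WT. The catalase gene cat1 had a gap of 0.12, and DHAR2, a dehydroascorbate reductase, stood lower by 0.09.

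Of 32 listed ripening genes, 2 stood higher in the pair, 8 lower and 22 overlapped, against 148, 95 and 559 of all 802 named genes. The share that overlapped was thus close to that over all named genes. The share that stood higher was below the 18.5% of all named genes, and the share that stood lower was above their 11.8%. These shares were not tested. The transcription factor gene RIN, which is needed for ripening, was at 9.91 in AS5 pool 3 and 10.05 in AS17 pool 1, against 10.09, 10.06, 9.99 and 9.59 in the other 4 and 9.93, 9.96 and 10.01 in WT. NOR, another regulator of ripening, was at 8.80 and 8.11 in the outlying arrays, against 8.38 to 9.03 in the other 4 and 8.61 to 8.85 in WT. Both regulators overlapped, as did TDR4, PG2, EXP1 and the pectinesterase gene PE1. Psy1, the phytoene synthase of fruit carotenoid synthesis, was at 11.98 and 11.96 in the outlying arrays, against 11.91 to 12.14 in the other 4 and 12.10 to 12.13 in WT, near the top of the scale. E8, a ripening gene controlled by ethylene, stood lower by 0.05.

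Of the 10 ripening genes that stood apart, TBG6 had the widest gap. TBG6, a beta-galactosidase of growing fruit, was at 6.38 and 6.24 in the outlying arrays, against 4.80, 4.94, 4.73 and 5.23 in the other 4 and 4.27, 5.03 and 4.53 in WT, a gap of 1.01. DXR, which feeds carotenoid synthesis through the plastid isoprenoid pathway, was at 7.09 and 7.44 in the outlying arrays, against 7.85, 8.38, 8.26 and 8.28 in the other 4 and 8.09, 7.82 and 7.42 in WT, a gap of -0.42. The MADS-box gene MADS1 stood lower by 0.28, DDTFR18 by 0.26, ZDS, of carotenoid desaturation, by 0.13, and Rab11a by 0.05. The lipoxygenase gene loxC was at 5.62 and 5.73 in the outlying arrays, against 5.87 and 6.42 in AS5 pools 1 and 2, 7.04 and 7.39 in AS17 pools 2 and 3, and 6.81 to 8.23 in WT, so that the pair was lowest and WT mostly highest.

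The plastid isoprenoid pathway was made a list of its own after these values had been seen. Of its 4 measured genes, DXR, ISPE and DXS stood lower, by 0.42, 0.38 and 0.14, and HDS overlapped. ISPE was at 7.28 and 7.19 in the outlying arrays, against 7.65 to 8.25 in the other 4 and 7.57 to 7.97 in WT. Another Psy1 probe set, singled out after its values were seen, did not follow the bright one: it was at 6.90 and 7.52 in the outlying arrays, against 5.16, 5.02, 4.64 and 4.33 in the other 4 and 1.40, 2.37 and 1.55 in WT. The remaining Psy1 probe set was at 5.39 and 4.69 in the outlying arrays and overlapped with the other 4. What these dimmer probe sets bind was not tested.

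Of 46 cell wall genes, 9 stood higher, 4 lower and 33 overlapped, beside 148, 95 and 559 of all 802 named genes. Among the overlapping ones, EXP2, EXPA8, MAN1, MAN2, TAPG1, TAPG2, TAPG4, XTH7, cel7 and exp18 were at background in all 9 arrays. XTH1, a xyloglucan endotransglucosylase/hydrolase, was at 6.77 and 7.01 in the outlying arrays, against 4.42 and 5.35 in AS5 pools 1 and 2, 4.48 and 5.66 in AS17 pools 2 and 3, and 3.33, 5.06 and 4.98 in WT. PMEU1, a pectin methylesterase, was at 7.40 and 7.35 in the outlying arrays, against 5.72, 6.25, 4.99 and 6.87 in the other 4 and 4.06, 5.10 and 5.24 in WT. In both genes the pair was highest, AS17 pool 3 came next and WT was within or below the range of the other silenced arrays. The gaps were 1.11 and 0.48. XET4, of the same family as XTH1, and the beta-galactosidase gene TBG7 had gaps of 0.54 and 0.76. The gene annotated CELLULASE was dim, at 3.21 and 3.77 in the outlying arrays, against 1.38 to 1.78 in the other 4 and 1.71 to 2.14 in WT.

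For sugar and starch, 8 of 24 genes stood higher, 3 lower and 13 overlapped, beside 148, 95 and 559 of all 802 named genes. LOC543961, a sucrose synthase gene with SUS1 as a synonym, was at 8.05 in AS5 pool 3 and 8.09 in AS17 pool 1, against 5.46 and 6.10 in AS5 pools 1 and 2, 5.07 and 6.58 in AS17 pools 2 and 3, and 4.91, 5.26 and 5.53 in WT. The gap was 1.47, or 2.77-fold, and WT stood with or below the lower silenced arrays. AgpL1, a large subunit of ADP-glucose pyrophosphorylase in starch synthesis, was at 4.78 and 5.07 in the outlying arrays, against 3.17 to 4.12 in the other 4 and 2.30 to 3.80 in WT. The fructokinase genes went in both directions: FRK2 stood higher by 0.11, and FRK3 was at 7.19 and 7.21 in the outlying arrays, against 7.73 to 7.98 in the other 4 and 7.79 to 7.93 in WT, a gap of -0.52.

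No gap of 1 or more was found in the lists of lipid signalling, of auxin, gibberellin and cytokinin, of senescence and of the cell cycle. Over all 802 named genes, 16 (1.995%) had such a gap, so none in lists of this size says little. Of 8 lipid signalling genes 3 stood higher and 1 lower, led by the fatty acid desaturase gene Fad7 at -0.31. Of 9 genes of auxin, gibberellin and cytokinin 1 stood higher and 2 lower, and all 3 were at background in 7 or 9 of the 9 arrays. The senescence and protease list had 1 higher and 10 overlapping genes, and the overlapping P69A, PAP1, SBT2, TBN1 and sbt4a were at background in all 9 arrays. The cell cycle list had 1 higher and 12 overlapping genes, and the higher one, the D-type cyclin CYCD3, was at 6.91 and 6.97 in the outlying arrays, against 5.59 to 6.72 in the other 4, of which AS17 pool 3 was highest.

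Markers of tissues that a mesocarp sample could also hold were examined beside these results. In the seed and embryo list, CHI9 and MAN2 were measured. MAN2, a mannanase of seeds, was at background in all 9 arrays, and CHI9 is also a defence gene of other tissues. The 5 epidermis and cuticle markers had a mean level of 4.09 in AS5 pool 3 and 3.60 in AS17 pool 1, against 3.02 to 3.82 in the other 4 and 3.17 to 3.35 in WT. Of them, chalcone synthase genes CHS1 and CHS2 stood higher by 0.43 and 0.17, and LE16, TSW12 and ltpg1 overlapped, with TSW12 at background in all arrays. The 6 markers of locule, placenta and vascular tissue averaged 4.31 and 4.28 in the outlying arrays, against 3.92 to 4.27 in the other 4 and 3.88 to 4.21 in WT, with 1 gene, SUT2, higher by 0.11. The 7 photosynthesis genes averaged 6.62 and 6.35 in the outlying arrays, against 5.78 to 6.42 in the other 4 and 5.92 to 6.48 in WT. The part of tissue composition in the results was not tested.

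The genes that stood lower did so by less. The widest gap below among named genes was that of BCCP1, the biotin carboxyl carrier of plastid fatty acid synthesis, at 7.16 in AS5 pool 3 and 7.45 in AS17 pool 1, against 8.29, 8.26, 8.43 and 8.24 in the other 4 and 8.33, 8.12 and 8.00 in WT. The outlying pair was below all other 7 arrays, with a gap of -0.79. FRK3 and LOC544298 followed at -0.52, PTPKIS1 at -0.46, and Rab1A, a small GTPase of membrane traffic, at -0.43. PTPKIS1 was at 6.12 and 6.32 in the outlying arrays, against 6.78 to 6.90 in the other 4 and 7.08 to 7.59 in WT. UCP, a mitochondrial uncoupling protein, stood lower by 0.42. The remaining genes among the 15 with the widest gaps below had gaps from -0.42 to -0.32.

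The widest gap of all belonged to a probe set with no gene name in the annotation used. It was at 8.35 in AS5 pool 3 and 6.85 in AS17 pool 1, against 2.20, 2.79, 1.56 and 2.48 in the other 4 and 1.99, 1.58 and 2.49 in WT, a gap of 4.06. The next unnamed probe set was at 6.79 and 9.93 in the outlying arrays, against 1.66 to 3.73 in the other 4 and 1.55 to 1.92 in WT, a gap of 3.05. Both were far higher in the pair than in the other 7 arrays, and each was led by a different array of the pair. On the lower side, 1 probe set had a gap under -1, at 3.08 and 3.08 in the outlying arrays, against 4.66 to 5.87 in the other 4 and 2.18 to 3.39 in WT, so the pair stood at the WT level. The next below had a gap of -0.96.

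The outlying arrays came from different lines, so each was also set against the other pools of its own line. The deviation of AS5 pool 3 from the mean of AS5 pools 1 and 2 and that of AS17 pool 1 from the mean of AS17 pools 2 and 3 had the same sign in 61.1% of the 10038 probe sets. Across probe sets, which share the arrays and are not independent, the deviations correlated at r = 0.56 (Pearson) and 0.41 (Spearman), a measure that the selection of the pair already used. A deviation above 1 was found in 519 probe sets for AS5 pool 3, in 346 for AS17 pool 1 and in 217 for both, and one below -1 in 90, 145 and 14. Of the 79 probe sets with a gap of at least 1, AS5 pool 3 was the higher one in 34, the outlying arrays were within 0.5 of each other in 48, and they were more than 1 apart in 16.

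**Figure D5:**
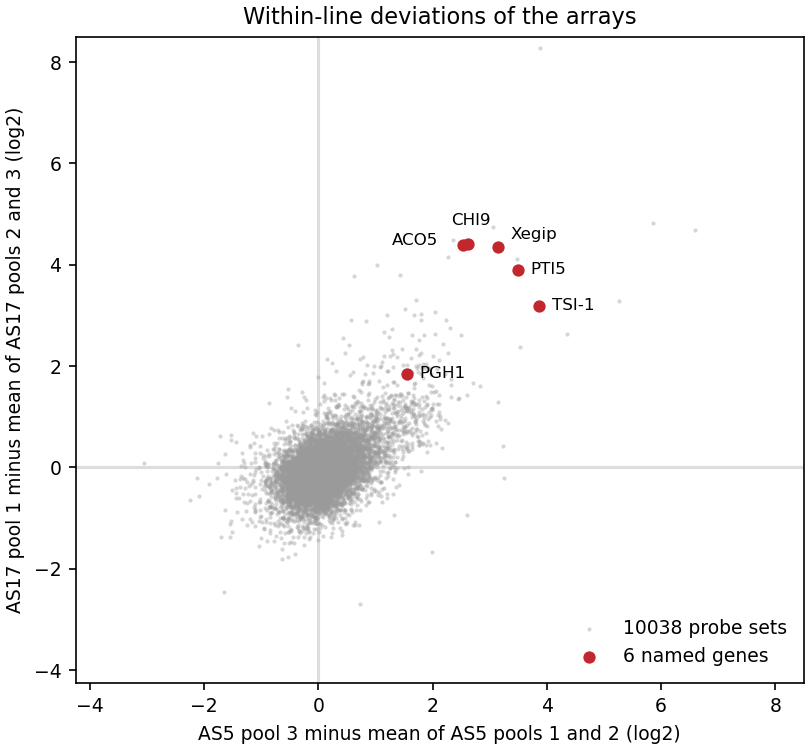
Deviation of AS17 pool 1 from the mean of AS17 pools 2 and 3 (y axis) against the deviation of AS5 pool 3 from the mean of AS5 pools 1 and 2 (x axis), in log2 units, for 10038 probe sets (grey) with 6 named genes in red. The upper right holds 217 probe sets above 1 in both, and the lower left 14 below -1 in both.

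Each array of the pair also had genes of its own. AS5 pool 3 stood above the other 5 silenced arrays by at least 1 in 52 probe sets and below them in 10, and AS17 pool 1 did so in 25 and in 3. PR1b1, a basic pathogenesis-related protein of the PR-1 family, was above background in AS5 pool 3 alone by its brighter probe set. It was at 1.46, below background, in AS17 pool 1, at 0.68 to 1.21 in the other 4 and at 0.94 to 1.21 in WT. A second PR1b1 probe set was at 0.83 in AS5 pool 3, 0.42 in AS17 pool 1 and 0.80 to 0.98 in the other 4. That probe set did not set AS5 pool 3 apart. AI, the vacuolar acid invertase of ripe fruit, was at 10.27 in AS5 pool 3 and 12.19 in AS17 pool 1, against 11.05 to 12.27 in the other 4 and 12.34 to 12.40 in WT. AS5 pool 3 was thus the low array for AI, but it was the high one for the hexose transporter gene HT2, at 3.87 against 2.35 in AS17 pool 1 and 1.42 to 2.02 in the other 4. The beta-galactosidase gene TBG3 was at 5.47 in AS5 pool 3 and 7.44 in AS17 pool 1, against 7.53 to 8.31 in the other 4. AS17 pool 1 led in LAPA1, in the expansin gene exp11, at 3.26 against 2.21 in AS5 pool 3 and 1.60 to 1.98 in the other 4, and in NAC1, at 6.13 against 5.50 in AS5 pool 3 and 3.53 to 4.88 in the other 4.

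The tests that the study's design allows compare lines, and the outlying arrays enter them as pools of AS5 and AS17. With all 9 arrays in limma, 128 probe sets (1.28%) passed a Benjamini-Hochberg adjusted p under 0.05 for both lines minus WT, 38 (0.379%) for AS5 minus WT, 135 (1.34%) for AS17 minus WT and 0 (0%) for AS17 minus AS5, where 591 had an unadjusted p under 0.05. With both outlying arrays left out the counts were 208 (2.07%) for both lines, 51 (0.508%) for AS5, 315 (3.14%) for AS17 and 0 (0%) between the lines, the last with 1141 at an unadjusted p under 0.05. The median residual SD was 0.168 without the outlying arrays and 0.213 with them. Leaving out arrays because they stand apart lowers that spread by construction. Leaving out 1 array at a time gave 27 to 110 calls for both lines, 18 to 38 for AS5 and 20 to 140 for AS17. The arrays that moved a count by more than 1.5 times were other ones than the outlying pair. Dropping WT pool 1, 2 or 3 left 27, 37 or 51 probe sets for both lines, 22, 35 or 35 for AS17 and 18 each time for AS5. Dropping AS5 pool 1 or 2 left 62 or 49 for both lines, 73 or 48 for AS17 and 21 or 22 for AS5. Dropping AS17 pool 3 left 70 for both lines and 20 for AS17.

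The calls with and without the outlying arrays shared most of the smaller list. For both lines, 108 probe sets passed both ways, 20 only with the outlying arrays and 100 only without them. All 108 shared ones had the same sign. For AS17, 109 passed both ways, 26 only with the arrays and 206 only without, and for AS5 32, 6 and 19. Of the 79 probe sets that stood at least 1 higher in the pair, 1 passed for both lines with all 9 arrays and 0 for either line alone, with shares over all probe sets of 1.28% for both lines, 0.379% for AS5 and 1.34% for AS17. Without the pair, 9 of the 79 passed for both lines, 2 for AS5 and 14 for AS17, where 2.07%, 0.508% and 3.14% of all probe sets passed. Of these, 7 of the 9 were lower in the silenced lines and 2 of the 2 for AS5 were higher. Of the 14 for AS17, 2 were higher. In all 79 the pools that remain lie, by choice, below the pair, so these calls are given as a description.

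PTI5, Xegip, TSI-1 and ACO5 did not pass in any line contrast with all 9 arrays. The fits without the pair, here and in the next paragraph, kept only AS5 pools 1 and 2 and AS17 pools 2 and 3 of the silenced lines. Since the pair was chosen from these same values, the changes and adjusted p-values of those fits are given only as a description. The change of ACO5 was -0.93 (SE 1.18, adjusted p = 0.747 in limma) for AS17 minus WT with all 3 pools, and the gene fell by 2.39 (SE 0.39, adjusted p = 0.0316) with the outlying arrays left out. The change of PGH1 was -0.42 (SE 0.48, limma adjusted p = 0.731) for both lines minus WT with all 9 arrays, and it fell by 0.99 (SE 0.13, adjusted p = 0.0183) without the pair. In both genes the outlying pools stood above all WT pools, while in ACO5 both other AS17 pools, and in PGH1 all 4 other silenced pools, stood below all WT pools. ERF4 fell by 1.18 (SE 0.12, limma adjusted p = 0.00657) without the pair. With the pair kept, its change was -0.90 (SE 0.31, adjusted p = 0.215). The outlying pools differed in ERF4. AS5 pool 3, at 6.62, was at the WT level of 6.18 to 6.60. AS17 pool 1, at 5.53, was below all WT pools and close to the other 4, at 5.13 to 5.33. The homeobox gene h52 fell by 2.33 (SE 0.26, limma adjusted p = 0.0105) without the pair, and its change with all 9 arrays was -1.86 (SE 0.45, adjusted p = 0.101).

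Named genes that passed only without the pair for both lines numbered 11, and those that passed only with it 3. Beside PGH1, ERF4 and h52, the 11 were LOC543971, which rose by 1.16 (limma adjusted p = 0.0134), and LOC606712, GLDH, SDH, TBG7, AN34, Cel3 and sus3, which fell by 0.53 to 1.48. LOC606712 is listed with TERF1 as a synonym, an ERF family name, and fell by 1.48 (SE 0.18, limma adjusted p = 0.0134). GA3ox1, of gibberellin synthesis, the phytoene synthase gene PSY2 and MFP1 passed only with all 9 arrays. The change of GA3ox1 was -0.80 with the pair (limma adjusted p = 0.0406) and -0.77 without it (adjusted p = 0.0581). For AS17 alone, DREB1 fell by 1.48 (SE 0.20, limma adjusted p = 0.0187) and Cel2, an endoglucanase, rose by 2.33 (SE 0.36, adjusted p = 0.0274) without the pair, against adjusted p = 0.551 and 0.107 with it.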

How the data were processed

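Per the labels' protocols, RNA was extracted with TRIzol, checked on a Bioanalyzer and amplified with a MessageAmp kit. The authors deposited log2 values for every probe set on each array. Per the submitters' processing notes they were made with RMA, which corrects background, normalises arrays and summarises probes. Its version and settings, and detection calls, are not given in the sources used here. Values were used as deposited. Of 10209 probe sets, 171 control probe sets were left out, and 909 of the other 10038 carried a gene symbol, for 802 genes. Names came from the platform annotation, which is old, and synonyms from RefSeq (assembly SLM_r2.1), matched for 885 of the 909. The probe set with the highest mean over the 9 arrays represented a gene. Background was the 95th percentile of 63 reporter control probe sets per array, and bounds raise lower values to it. List genes were matched by symbol or synonym.

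Line contrasts were fitted with limma 3.58.1 (lmFit, eBayes) in R 4.3.3 over all 9 arrays with 1 mean per line, at a Benjamini-Hochberg adjusted p under 0.05 over all probe sets, and the code was tested on simulated data. Pools came from different plants, so p-values measure the spread between pools. Named genes were the 4 markers given for the pair, the 20 genes with the widest gap above and the 15 with the widest below that were above background on the higher side, up to 6 separated members per list, RIN, NOR and Psy1, up to 12 genes per contrast whose call changed without the pair, and up to 2 unnamed probe sets per direction. Any other gene was picked once its values were known. The members, markers and lists were chosen with earlier results of these data known. Promoter motifs were not analysed here. Alternatives were leaving out dim probe sets, centring arrays on their median, quantile normalisation, array weights, the pool number as a block, other gaps, WT added to the other 4, and leaving out each array or both outlying ones. Tables and plots were made in Python 3.11.15 with matplotlib 3.10.9.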

Additional observations from a re-analysis of the deposited data

How the results depend on the processing

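The count of probe sets at least 1 higher in AS5 pool 3 and AS17 pool 1 was 79. It was 312 at a gap of 0.5, 11 at a gap of 2, 1547 at any gap, 50 with WT added to the other 4, 16 with 1 probe set per named gene, 74 with values raised to background, 60 after median centring and 68 after quantile normalisation. For the lower side, where 1 probe set passed, the counts were 49 at 0.5, 0 at a gap of 2, 1309 at any gap, 0 with WT added and 0 among named genes. With 1 array left out they ran from 83 to 214 above and from 1 to 20 below, and leaving out an array can only widen a gap. Of the 90 genes with a gap among those picked for naming, 77 stayed separated after median centring and 83 after quantile normalisation. With WT added 67 did, and 0 changed direction in any of these settings. The 90 include the genes with the widest gaps, so these counts do not carry over to all named genes. In the line contrasts, the pool number as a replicate block gave 78 probe sets for both lines, 27 for AS5, 74 for AS17 and 0 between the lines, and array weights gave 556, 200, 311 and 0. The deviations of same-numbered pools from their line means correlated at -0.38 to 0.55. Those line means hold the outlying pair, whose pool numbers differ, so the correlations cannot show whether the numbers pair the samples. Without both outlying arrays the counts were 208, 51, 315 and 0, and with 1 array left out they ran from 27 to 110 for both lines, 18 to 38 for AS5, 20 to 140 for AS17 and 0 to 0 between the lines. The causes were not tested, apart from the lower spread that leaving out outlying arrays and down-weighting arrays bring by construction. Signal over background limited Xegip and TSI-1 to bounds, and at background levels the gaps of ACS6, CAB5, IAA2, P69B, PR1b1 and opr2 cannot be read as differences. The same holds for RBOH1, EXP12, FRK4, TPX2, CPS and GA20OX1, which were counted as lower. TPX2 was at background in 8 of the 9 arrays and the others in all 9.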

Other observations

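AS17 pool 3, which is not among the outlying arrays, was the highest of the other 4 silenced arrays in 624 of the 1547 probe sets that stood higher in AS5 pool 3 and AS17 pool 1 by any gap, against 431 for AS5 pool 1, 364 for AS5 pool 2 and 128 for AS17 pool 2. Among the 148 named genes that stood higher it was the highest of the 4 in 54. Among the genes in which it was the highest of the 4 were CYCD3, at 6.72 against 6.91 in AS5 pool 3, the endoglucanase gene CEL8, at 7.62 against 7.80, and SNF1, a protein kinase of energy signalling, at 8.50 against 8.59 in AS17 pool 1. In ACO5, PTI5 and ERF3 it did not lie near the pair, at 6.08, 1.95 and 4.86. These genes were singled out after their values were seen.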
